A study of Mus musculus with 4 samples.

Results

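The ceramide and sphingolipid synthesis genes described here were 10 genes, Sptssb, Sptlc1, Sptlc2, Cers2, Cers3, Cers6, Degs2, Asah2, Ugcg and Sgms2. They were followed through every probe set (the group of short probes that reads 1 transcript on the array) that the platform annotation assigns to 1 of these genes by its current or older symbol, which gave 22 of 45101 probe sets. Sptssb was chosen because its differences with colitis ran in opposite directions in the 2 genotypes of the study, so its values are a description with no test. The 4 arrays, of 1 mouse each, were KO DSS, WT DSS, KO untreated and WT untreated, from RNA of distal colon pieces. KO mice lacked Adamts12, a secreted metalloprotease, and WT mice carried it. DSS mice drank 2% dextran sodium sulfate, a polymer that injures the colonic epithelium, for 8 days according to the treatment protocol or 7 days according to the series text, and then had 1 day without it. The age at the start was 8 to 10 weeks, and neither the strain nor the part of Adamts12 that was removed is given in the sources used here.

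Sphingolipids are membrane lipids built on ceramide, a long-chain base joined to a fatty acid. Serine palmitoyltransferase starts the pathway in the endoplasmic reticulum, ceramide synthases attach the fatty acid, a desaturase or hydroxylase finishes the base, and ceramide is then turned into glucosylceramide or sphingomyelin or cut by ceramidases. In the intestine these lipids form much of the apical membrane of epithelial cells, and ceramide and sphingosine 1-phosphate also act as signals.

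The members with the widest differences between arrays were Sptssb and Cers3, so the 250 bases before their annotated start sites are shown, from RefSeq on GRCm38.p6, with matches to the letters searched in capitals.
Sptssb, minus strand, chr3:69859895-69860144: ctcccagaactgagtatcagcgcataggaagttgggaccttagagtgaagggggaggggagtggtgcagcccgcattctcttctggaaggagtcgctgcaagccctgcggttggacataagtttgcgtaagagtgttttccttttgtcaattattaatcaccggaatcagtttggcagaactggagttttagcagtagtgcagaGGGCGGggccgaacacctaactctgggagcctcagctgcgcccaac
Cers3, plus strand, chr7:66743254-66743503: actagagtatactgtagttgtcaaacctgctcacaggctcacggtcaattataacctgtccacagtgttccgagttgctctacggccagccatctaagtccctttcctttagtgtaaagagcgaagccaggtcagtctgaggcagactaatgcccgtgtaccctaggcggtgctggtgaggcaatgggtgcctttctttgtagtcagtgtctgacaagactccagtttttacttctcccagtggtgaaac

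Both strands were searched for 4 motifs. The TATA box was searched as the letters TATAAA. The core of the sites bound by the intestinal CDX factors was searched as TTTATG. The AP-1 site, bound by Fos and Jun proteins, was searched as TGANTCA, with N for any base. The GC box, bound by Sp1 and its relatives, was searched as GGGCGG. None of these motifs overlapped another in the 2 windows. The Sptssb window held 1 GC box, beginning 46 bases before the start site and marked in capitals, and the Cers3 window held none of the 4 motifs. Among 32851 RefSeq windows of this length, 32.7% held the GC box, 12.4% the TATA box, 10.8% the CDX core and 6.75% the AP-1 site. The windows had a GC content of 53.2% for Sptssb and 49.6% for Cers3, against a median of 52.4% over all windows.

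All values below are log2 array values, so a difference of 1 is 2-fold. Each group holds 1 array, so differences between single arrays carry neither a replicate check nor a test, and the number of arrays limits the precision. Values at or under 1.39, the highest of 9 probe sets of Y-linked genes on arrays where Xist was at 9.68 or higher, were read as not above background. Probe sets that exceeded the median of an array (3.42 to 3.46) on at least 1 of the 4 were kept for counts over genes, and the kept probe set with the highest mean stood for its gene. All 10 members passed, through 19 of their 22 probe sets. Of these members, 8 lay above the median on all 4 arrays, while Sptssb did so on 3 arrays and Cers3 only on the KO DSS array. Having passed only where it was high, Cers3 had to differ from the other arrays.

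The arrays were first checked against their labels. Adamts12 was dim: its brighter probe set had 1.41 on the KO DSS array, 2.18 on the WT DSS array, 1.42 on the KO untreated array and 2.18 on the WT untreated array, lower in both KO mice. The other Adamts12 probe set was not above background on any array. The 8 colon epithelium markers were above background on all 4 arrays, Epcam at 10.98 or higher, and so were the 5 goblet cell markers. Cdx2, the intestinal homeobox gene of the first list, was at 6.19 on the KO DSS, 7.34 on the WT DSS, 8.40 on the KO untreated and 6.15 on the WT untreated array, highest where Sptssb was highest. Slc26a3 and Cdh1 of that list were lowest on the KO untreated array, at 8.65 and 9.80, and its other genes were highest there. Of the goblet list, 3 genes (Tff3, Fcgbp and Clca1) were at least 2-fold lower in KO than in WT without DSS, against 5.98% of all genes. With DSS, 3 (Fcgbp, Clca1 and Agr2) were, against 1.21%. Position markers set the KO untreated array apart. Hoxb13, a homeobox gene of the most posterior gut, was at 8.40 on the KO DSS, 7.84 on the WT DSS, 2.48 on the KO untreated and 9.47 on the WT untreated array. Osr2, a transcription factor gene on the list of small intestine and proximal colon markers, was at 1.65, 1.23, 7.67 and 1.16 in the same order. DSS differences in KO are therefore also given with the WT untreated array in place of the KO untreated array. The WT pair differed in position markers too. Hoxd13, another posterior homeobox gene, was at 4.22 on the WT DSS and 8.82 on the WT untreated array. In these bulk samples, fewer cells of a type and less RNA per cell cannot be told apart.

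Over the 4 pairs of arrays, 3 of the 10 members were at least 2-fold apart in at least 1 pair (Sptssb, Cers3 and Sgms2), against 26.2% of the 12190 genes. That share is near the background, and the other 7 members varied by 0.27 to 0.74 from their lowest to their highest array. The median range over all genes was 0.67. The widest range was that of Sptssb, 6.69, with 10 genes wider, followed by Cers3 at no less than 2.49, taking its untreated arrays at the background limit.

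**Figure D1:**
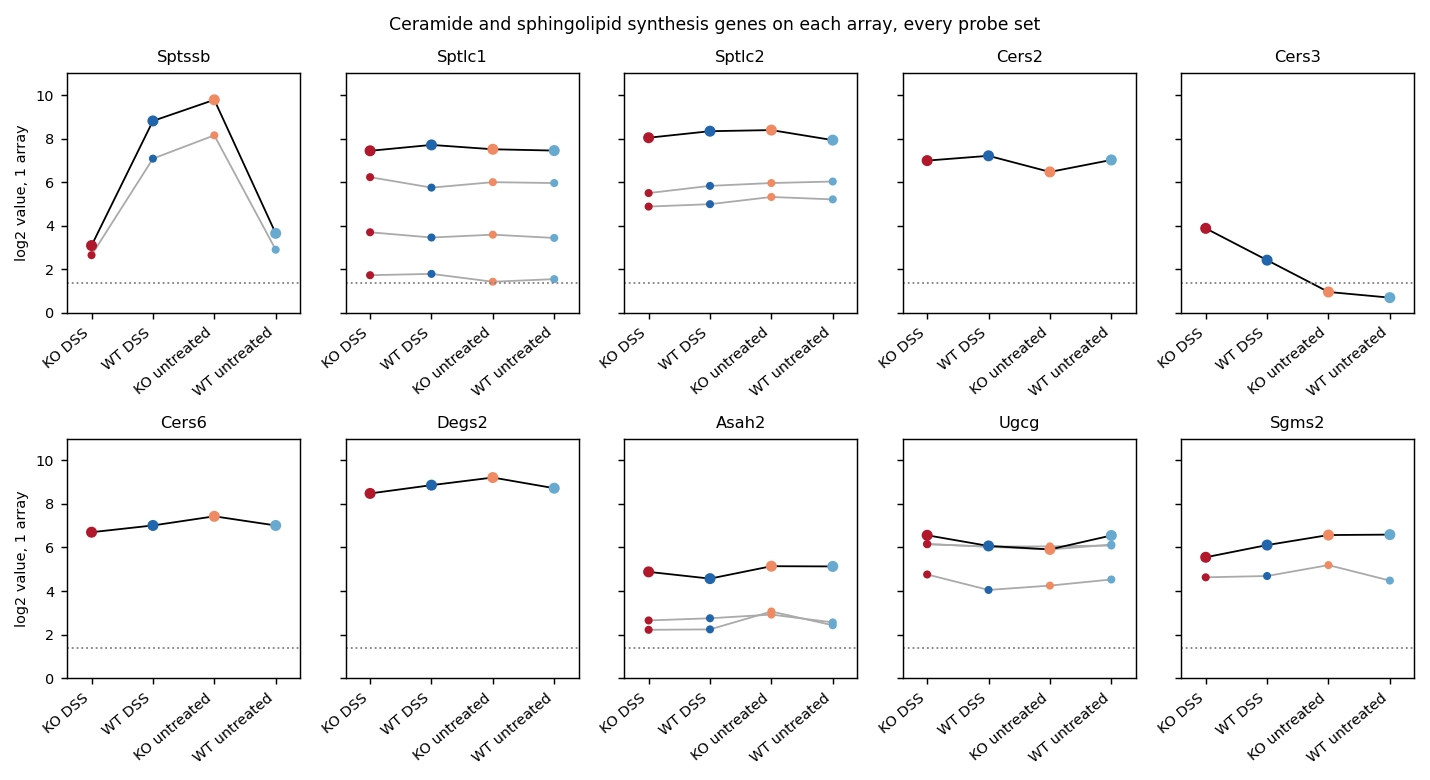
Log2 values of the 10 genes on each of 4 arrays, 1 mouse per array, with the KO DSS, WT DSS, KO untreated and WT untreated arrays from left to right. Each line joins the values of 1 probe set, black for the one that stands for its gene and grey for others, and the dotted line is the background limit of 1.39. Sptssb was high on the WT DSS and KO untreated arrays, and Cers3 was above the limit on the DSS arrays only.

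Sptssb encodes small subunit B of serine palmitoyltransferase, which raises the activity of the enzyme and lets it use longer acyl chains. Its brighter probe set had 3.09 on the KO DSS, 8.81 on the WT DSS, 9.78 on the KO untreated and 3.65 on the WT untreated array. The dimmer one, designed to the same transcript record, had 2.65, 7.08, 8.15 and 2.90 in the same order. Both were high on the WT DSS and KO untreated arrays and near the middle of their array or below it on the other pair.

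With DSS, Sptssb was lower by -6.69 in KO, which is 103-fold, and higher by 5.16 in WT, which is 35.8-fold. Between genotypes, KO was higher than WT by 6.13 (70.0-fold) on the untreated arrays and lower by -5.72 (52.7-fold) on the DSS arrays, a reversal that 0.386% of all genes (47) showed at 2-fold or more. The dimmer probe set gave -5.50 and 4.18 for DSS in KO and WT, and 5.25 and -4.43 for KO against WT without and with DSS. These differences chose the gene and are given as a description. Among 12190 genes, 2 had a lower DSS difference in KO and 3 a higher one in WT, and none had a lower KO minus WT difference with DSS. Opposite DSS differences of at least 2-fold, lower in KO and higher in WT, were seen for 41 genes (0.336% of all genes), and of at least 16-fold for Sptssb alone (0.0082%).

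The low level on the KO DSS array was close to that of the WT untreated array. Set against the WT untreated array in place of the KO untreated array, the KO DSS array differed by -0.56 for Sptssb. The size of the DSS difference in KO thus rests on the KO untreated array.

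Markers of position along the gut moved with Sptssb in KO and in part in WT. The 11 genes of the small intestine and proximal colon list, all on the array and 9 of them kept, had a summed level in linear units of 112 on the KO DSS, 402 on the WT DSS, 2749 on the KO untreated and 189 on the WT untreated array. The arrays fell in the same order by this sum as by Sptssb. That order rests on Fabp2 and Isx, which carried most of the sum on the WT DSS array, at 8.07 and 6.09. The next gene there was Alpi at 3.75. Fabp2 and Isx are also among the genes found nearest to Sptssb below. Of these genes, 1 was at or under the background limit on the KO DSS array, 2 on the WT DSS array (Osr2 and Slc10a2), 0 on the KO untreated and 2 on the WT untreated array. The 8 posterior Hox genes, 6 of them kept, summed to 566, 312, 83.5 and 1285, lowest where Sptssb was highest. With DSS in WT, 4 of these 6 were at least 2-fold lower, against 4.95% of all genes, with a median of -1.755. Among these, Hoxd11 passed the filter only through the WT untreated array, so it had to be lower on the other arrays. With DSS in KO, 8 of the 9 kept genes of the first list were at least 2-fold lower, against 6.68% of all genes, with a median of -3.83. Osr2, Slc10a2 and Slc51a passed the filter only through the KO untreated array, so they had to be lower on the KO DSS array. With DSS in WT, 3 of the 9 were higher and 1 lower, against 5.82% and 4.95% of all genes, with a median of 0.07, so the list was split. Fabp2, which encodes an enterocyte protein that carries fatty acids, and the intestinal homeobox gene Isx were at 8.07 and 6.09. On the WT untreated array they were at 6.72 and 2.69. Hoxb6 was at 2.66 on the WT DSS array, against 3.66. Fabp6 and Sis were lower too, at 3.43 and 3.57, against 4.13 and 4.30. B and plasma cell markers moved the opposite way to Sptssb. Of the 5 on that list, 4 were on the array and kept, none was at or under the background limit, and they summed to 2159 on the KO DSS, 1124 on the WT DSS, 1285 on the KO untreated and 2885 on the WT untreated array. Ms4a1, a B cell surface gene, had 7.29, 4.72, 4.10 and 6.66. This direction was not particular to B and plasma cells. The smooth muscle list summed to 5478, 4813, 3581 and 6957 in the same order, and the fibroblast list to 3103, 1380, 1501 and 1897, also opposite to Sptssb in all 4 pairs of arrays. The part of these markers in the Sptssb values was not tested.

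The genes whose pattern was most like that of Sptssb were sought over the 4 arrays by the Euclidean distance between log2 values, each minus the gene's own mean. The 8 nearest, in order, were Slc3a1, Reg3b, Slc13a1, Fabp2, 1810065E05Rik, Isx, Ces1f and Reg3g, at distances of 2.00 (Slc3a1) to 3.14 (Reg3g), against a median distance of 6.01 over all genes. Slc3a1 encodes a subunit of an amino acid transporter and had 2.56 on the KO DSS, 5.91 on the WT DSS, 7.06 on the KO untreated and 2.44 on the WT untreated array. Slc13a1, a sulfate transporter gene, had 2.91, 5.01, 8.55 and 2.71. Reg3b and Reg3g, genes of lectins that act against bacteria, were higher on the WT DSS than on the KO untreated array, at 11.86 and 11.01 for Reg3b and at 11.10 and 9.37 for Reg3g, the reverse of Sptssb. Fabp2 and Isx also belong to the small intestine and proximal colon list. The probe sets of Reg3b, Slc13a1 and Ces1f can match several transcripts.

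**Figure D2:**
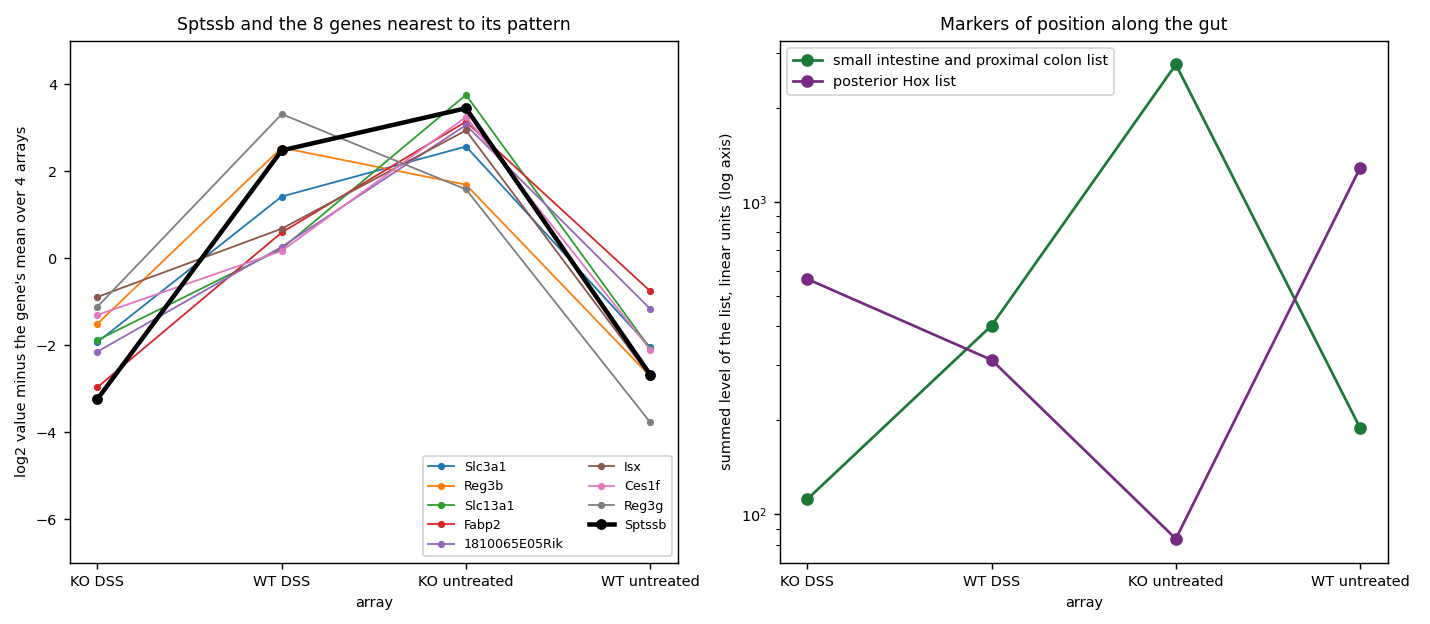
Left, log2 values of Sptssb (thick black line) and of the 8 genes nearest to its pattern, each minus its own mean over the 4 arrays. Right, summed linear level of the small intestine and proximal colon list and of the posterior Hox list on a log axis, with 1 point per array. Sptssb and the first list were highest on the KO untreated array and lowest on the KO DSS array.

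The catalytic core of serine palmitoyltransferase differed little. Sptlc1, the first core subunit, had 7.44 on the KO DSS, 7.71 on the WT DSS, 7.51 on the KO untreated and 7.45 on the WT untreated array. Its 4 probe sets differed by -0.07 to 0.30 with DSS in KO and by -0.21 to 0.26 in WT. With the WT untreated array as baseline the brightest differed by -0.01 in KO. Sptlc2, the catalytic partner, had 8.04, 8.34, 8.39 and 7.93. All 3 Sptlc2 probe sets were lower with DSS in KO, by -0.46 to -0.35, while in WT they disagreed, with differences of -0.22 to 0.41. Neither gene was as much as 2-fold apart in any pair of arrays, on any probe set.

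Ceramide synthases differ in the length of the fatty acid they attach. Cers3, which makes the ultra-long ceramides of the skin barrier and of male germ cells, had 3.88 on the KO DSS, 2.42 on the WT DSS, 0.96 on the KO untreated and 0.70 on the WT untreated array. It was above background on both DSS arrays and on neither untreated array. With DSS it was at least 5.62-fold higher in KO, also with the WT untreated array as baseline, and at least 2.04-fold higher in WT, taking the untreated arrays at the background limit. The KO minus WT difference with DSS was 1.46. Its 1 probe set was dim, at percentile 55.6 of all probe sets on the KO DSS array and 36.1 on the WT DSS array.

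Cers3 is known from squamous epithelium, and the squamous list was therefore set beside it. Of 11 genes, 10 were on the array and 2 kept, with summed levels of 85.0 on the KO DSS, 70.7 on the WT DSS, 77.9 on the KO untreated and 70.8 on the WT untreated array. Of the kept genes, Krt6a had 4.88, 4.24, 4.50 and 4.06, highest on the KO DSS array as Cers3 was, and Sbsn had 3.51, 3.45, 3.55 and 3.48. With DSS, Krt6a differed by 0.38 in KO and 0.18 in WT. The basal keratin gene Krt5 had 2.46, 2.39, 2.65 and 2.52, and Krt14 had 3.14, 2.20, 2.34 and 2.80. Neither Krt5 nor Krt14 passed the filter. Krt5 was slightly lower on both DSS arrays than on both untreated ones, and Krt14 did not separate them. Krt13, also below the filter, was higher on both DSS arrays, at 2.52 in KO and 2.69 in WT against 1.97 and 2.19 untreated. Krt4, below the filter too, was lower, at 2.62 and 2.44 against 2.84 and 2.91. Krtdap was the 1 gene of the list at or under the background limit on any array. The neutrophil list of 5 genes, 3 of them kept, separated the DSS arrays from the untreated ones. It had sums of 685 on the KO DSS, 110 on the WT DSS, 29.0 on the KO untreated and 25.1 on the WT untreated array, highest where Cers3 was highest. S100a8 and S100a9 carried that sum, S100a8 being at 8.30, 5.81, 1.89 and 1.61. Cxcr2 and Mpo, the members that were not kept, lay between 1.42 and 2.70 and did not separate the DSS arrays from the untreated ones. Its part in the Cers3 values was not tested.

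Cers2, the synthase of very long chains, had 6.99, 7.21, 6.47 and 7.02 on the KO DSS, WT DSS, KO untreated and WT untreated arrays, lowest on the KO untreated array. Its only probe set can match several transcripts. The DSS difference of Cers2 in KO was 0.52, and -0.03 with the WT untreated array as baseline. Cers6, which favours shorter chains, had 6.70, 7.01, 7.43 and 7.01, highest on the KO untreated array and equal on the WT pair. Its difference with DSS was -0.73 in KO and 0.00 in WT.

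Degs2 finishes the base as a desaturase and hydroxylase and makes phytoceramide, a form found in intestine and skin. It had 8.48 on the KO DSS, 8.86 on the WT DSS, 9.21 on the KO untreated and 8.72 on the WT untreated array. The DSS difference was -0.73 in KO and 0.14 in WT. Degs2, Cers6 and the brightest Sptlc2 probe set thus shared with Sptssb their highest value on the KO untreated array, at far smaller differences. Set against the WT untreated array, the KO DSS array differed by -0.24 for Degs2, -0.31 for Cers6 and 0.11 for Sptlc2.

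Ugcg, glucosylceramide synthase, takes ceramide into glycosphingolipids. Its brightest probe set had 6.56 on the KO DSS, 6.07 on the WT DSS, 5.91 on the KO untreated and 6.55 on the WT untreated array. All 4 Ugcg probe sets were higher with DSS in KO, by 0.10 to 0.65, and lower with DSS in WT, by -0.48 to -0.05. They were likewise lower in KO than in WT without DSS, by -0.64 to -0.04, and higher with DSS, by 0.11 to 0.71. These differences ran the opposite way to those of Sptssb in all 4 pairs of arrays, and each was under 2-fold. The combination of a 2-fold higher value with DSS in KO and a 2-fold lower one in WT was seen in 0 members and in 0.804% of all genes. Set against the WT untreated array, the KO DSS array differed by 0.01 for Ugcg.

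Sgms2, a sphingomyelin synthase of the plasma membrane, had 5.55 on the KO DSS, 6.11 on the WT DSS, 6.57 on the KO untreated and 6.59 on the WT untreated array, lower on both DSS arrays. The DSS difference was -1.02 in KO, just past 2-fold, and -0.48 in WT. The next members, Cers6 and Degs2 at -0.73, lay outside that threshold. The dimmer Sgms2 probe set had 4.63, 4.69, 5.19 and 4.48, with DSS differences of -0.56 in KO and 0.21 in WT, so the probe sets disagreed in WT. No member was at least 2-fold lower with DSS in both genotypes, against 1.32% of all genes. Against the WT untreated array the KO DSS array differed by -1.04 on the brighter probe set.

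Asah2, the neutral ceramidase of the brush border that breaks down ceramide from food and shed cells, had 4.88 on the KO DSS, 4.57 on the WT DSS, 5.14 on the KO untreated and 5.13 on the WT untreated array. The DSS difference was -0.26 in KO, or -0.25 with the WT untreated array as baseline, and -0.56 in WT. Its other probe sets did not pass the filter. They lay between 2.22 and 3.06, highest on the KO untreated array.

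Counted over the 10 members, the KO DSS array had 1 gene at least 2-fold higher (Cers3) and 2 lower (Sptssb and Sgms2) than the KO untreated array, against 10.8% and 6.68% of all genes. The WT DSS array had 2 higher (Sptssb and Cers3) and 0 lower than the WT untreated array, against 5.82% and 4.95%. Sptssb was chosen on these DSS differences, and the other 9 members had medians of -0.26 in KO and 0.14 in WT, against 0.06 and -0.01 over all genes. KO against WT without DSS had 1 higher (Sptssb) and 0 lower, against 3.43% and 5.98%. With DSS it had 1 higher (Cers3) and 1 lower (Sptssb), against 4.22% and 1.21%. The medians of the same 9 members were 0.06 without DSS and -0.27 with DSS, against -0.01 and -0.02 over all genes. With the WT untreated array as baseline of the KO DSS array, 1 member was higher (Cers3, 6.14% of all genes) and 1 lower (Sgms2, 5.05%).

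**Figure D3:**
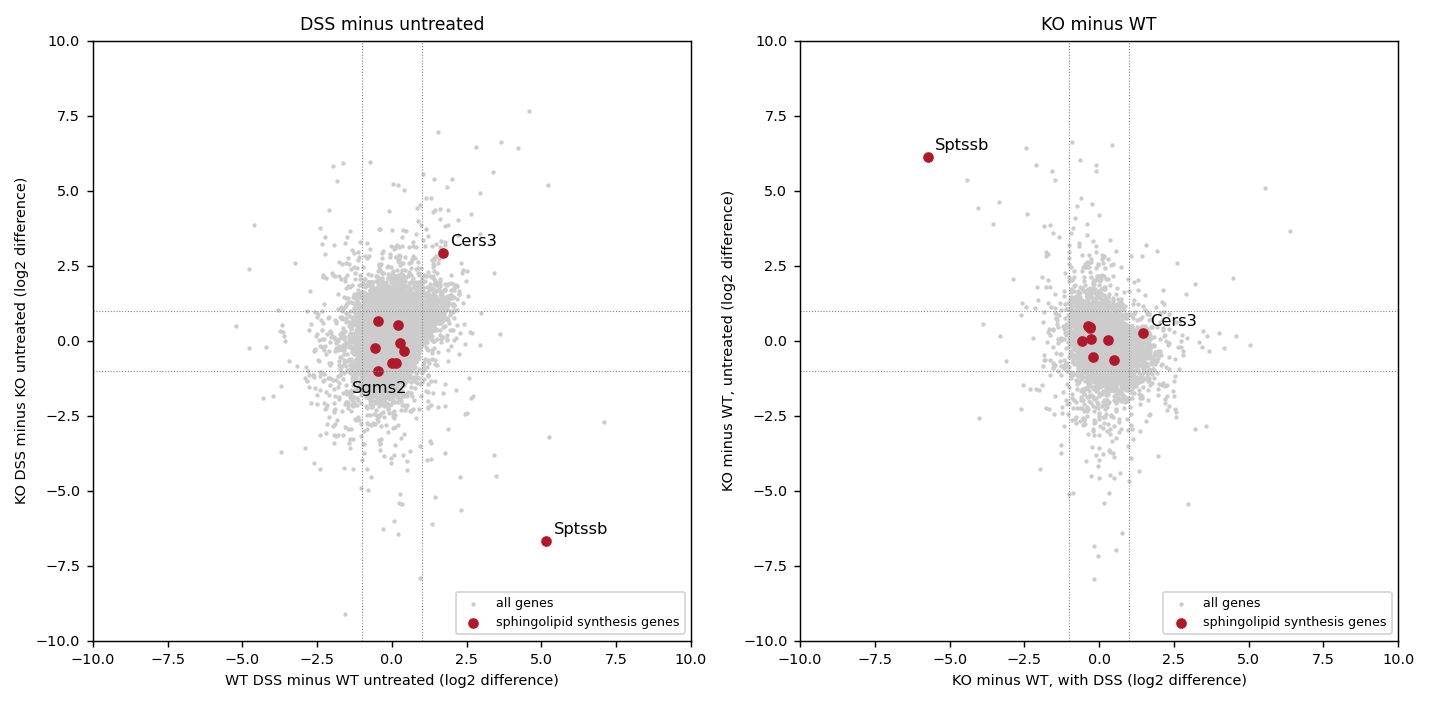
Left, log2 difference of DSS minus untreated in KO (vertical) against WT (horizontal). Right, log2 difference of KO minus WT without DSS (vertical) against that with DSS (horizontal). Grey points are the 12190 genes, red points the 10 sphingolipid synthesis genes, and dotted lines mark 2-fold; Sptssb lies in the corner of opposite differences, and the 2 axes of each panel share no array.

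The additive model over all 4 arrays, with genotype and treatment as factors, was the test the design allowed, and in it an unequal response of the 2 genotypes to DSS counts as error. Sptssb was left out of it here. For the DSS term, limma called 0 of 12190 genes at an adjusted p under 0.05 (0%), and 1436 (11.8%) at an unadjusted p under 0.05. None of the other 9 members passed after adjustment, and 1, Cers3, did before it. The Cers3 fit is no test, since the gene entered only through a DSS array and its untreated values were under the background limit. Sgms2 was at -0.75 ± 0.27 with an adjusted p of 0.431 by limma, lower in 2 of 2 genotypes on its brighter probe set. The dimmer Sgms2 probe set was higher with DSS in WT, by 0.21. For the KO term limma called 0 genes after adjustment and 175 (1.44%) before it, with 0 of the 9 members in either count.

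The rest of the sphingolipid pathway was read from 5 lists of 60 genes, 54 of which had a probe set and 50 of which were kept. At least 1 pair of arrays was 2-fold apart for 9 of the 50, or 18.0%, against 26.2% of all genes. In KO, 3 were at least 2-fold higher with DSS (B4galt6, Sphk1 and S1pr3) and 6 lower (Fa2h, Ugt8a, Gal3st1, B4galnt1, Acer1 and Neu1), against 10.8% and 6.68% of all genes, with a median of 0.10. With the WT untreated array as baseline, 4 were higher and 2 lower, against 6.14% and 5.05%. Of these, B4galt6 was at 1.27, B4galnt1 at 1.63, Sphk1 at 1.71, S1pr3 at 1.61, Gal3st1 at -1.85 and Acer1 at -1.93. Fa2h at -0.54 and Neu1 at -0.41 were under 2-fold with that baseline, and Ugt8a was not above background on either array. In WT, 1 was higher (B4galnt1) and 2 were lower (Gal3st1 and Acer1), against 5.82% and 4.95%, with a median of -0.12. KO against WT without DSS had 3 higher (Ugt8a, B4galnt1 and Neu1) and 0 lower, against 3.43% and 5.98%, with a median of -0.04. With DSS there were 2 higher (Sphk1 and S1pr3) and 0 lower, against 4.22% and 1.21%, with a median of 0.10. Ugt8a passed the filter only through the KO untreated array. Its place among the 9, the 6 lower with DSS in KO and the 3 higher in KO without DSS thus followed from the filter.

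Of the 7 kept genes in the list of synthesis steps, 1 was 2-fold apart anywhere. Fa2h, the fatty acid hydroxylase that makes hydroxylated ceramides, had 8.08 on the KO DSS, 8.32 on the WT DSS, 9.34 on the KO untreated and 8.62 on the WT untreated array. Sptssa, the small subunit that can take the place of the one encoded by Sptssb, had 8.49, 8.54, 8.06 and 8.54. It was lowest on the KO untreated array, where Sptssb was highest, and its 4 values lay within 0.48 of each other.

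Of the 12 genes that turn ceramide into complex sphingolipids, 4 were at least 2-fold apart in some pair. B4galt6, which makes lactosylceramide, was higher with DSS in both genotypes, by 1.64 in KO and 0.90 in WT, and its other 3 probe sets went the same way by 0.87 or more. Gal3st1, the sulfotransferase that makes sulfatide, was lower by -2.09 in KO and -1.47 in WT. B4galnt1, a synthase of complex gangliosides, had 6.23 on the KO DSS, 7.04 on the WT DSS, 8.68 on the KO untreated and 4.60 on the WT untreated array. It was lower by -2.45 with DSS in KO and higher by 2.44 in WT, and its dimmer probe set gave -0.58 and 0.50. Ugt8a, which makes galactosylceramide, was above background only on the KO untreated array on its representative probe set, at 3.67, at least 2.28 above each other array on the log2 scale. It passed the filter only through that array, so its 2-fold differences followed from the filter. Its other probe set was at 2.57 there and between 1.83 and 2.09 elsewhere, and with no filter it represented the gene, at -0.74 with DSS in KO and 0.48 for KO against WT without DSS.

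Among 17 breakdown genes, Acer1 and Neu1 were at least 2-fold apart. Acer1, an alkaline ceramidase, had 5.91 on the KO DSS, 5.08 on the WT DSS, 7.45 on the KO untreated and 7.84 on the WT untreated array, lower on both DSS arrays. Its other probe set also gave -1.54 in KO, and -2.07 in WT where the first gave -2.76. Neu1, the lysosomal sialidase, had 6.76, 6.74, 8.73 and 7.17, high on the KO untreated array alone.

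Among 10 kept genes of sphingosine 1-phosphate, Sphk1 and S1pr3 were at least 2-fold apart, both highest on the KO DSS array. Sphk1, the kinase that makes sphingosine 1-phosphate, had 5.17 on the KO DSS, 4.05 on the WT DSS, 3.52 on the KO untreated and 3.46 on the WT untreated array. S1pr3, a receptor for it, had 6.30, 4.36, 4.21 and 4.69. Its other probe sets were also highest on the KO DSS array, at 4.52 and 3.97, but in WT they disagreed, with DSS differences of -0.18 and 0.74. The other Sphk1 probe set was dim and lay between 2.13 and 2.47, without that pattern. None of 4 kept elongase genes was 2-fold apart. In limma's DSS term, 4 of the 50 had an unadjusted p under 0.05 (Acer1, B4galt6, Gal3st1 and Sphk1), 8.00% against 11.8% of all genes, and 0 passed after adjustment, the lowest adjusted p being 0.364.

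**Figure D4:**
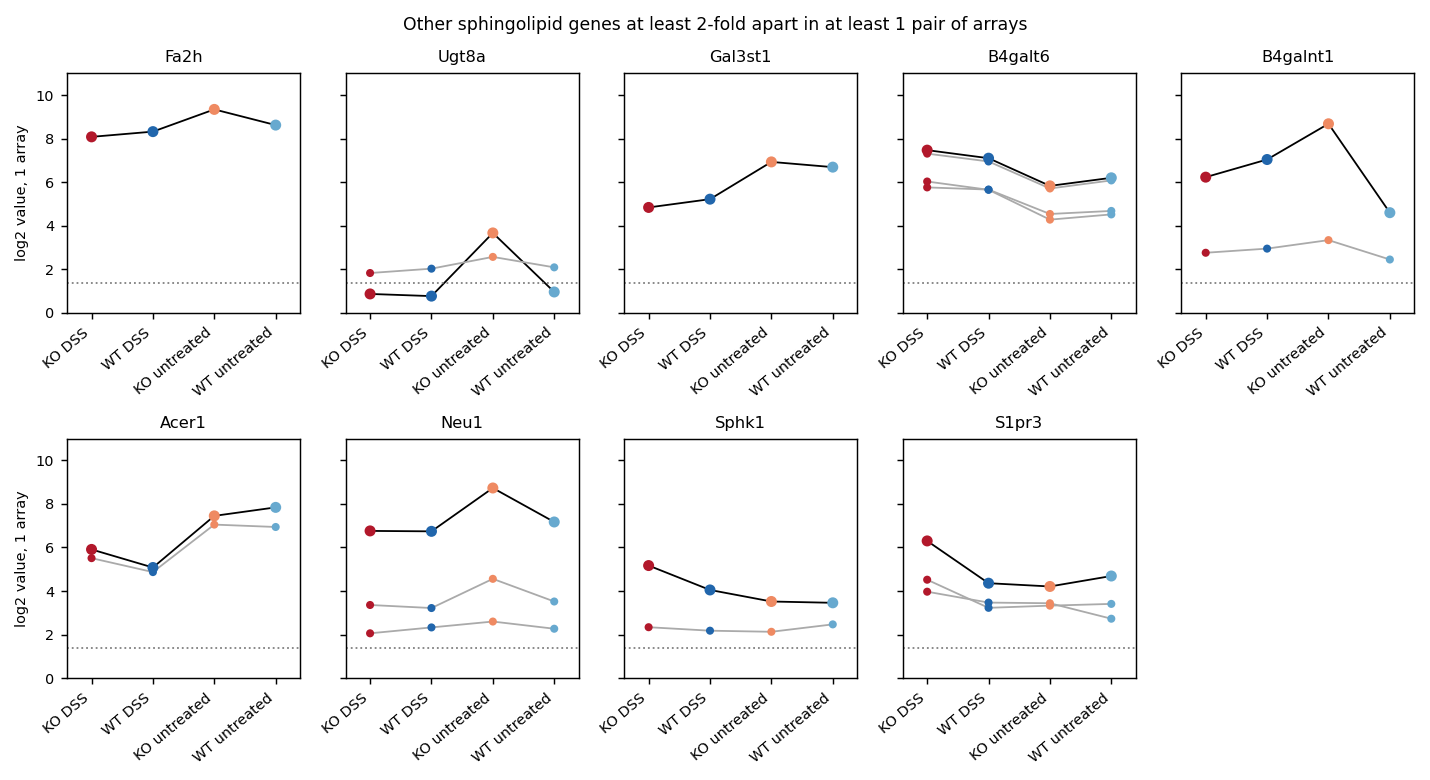
Log2 values of the 9 other sphingolipid genes that were at least 2-fold apart in at least 1 pair of arrays, drawn as for the members, with every probe set of each gene. Gal3st1 and Acer1 were lower and B4galt6 higher on both DSS arrays, while Ugt8a, B4galnt1 and Neu1 were highest on the KO untreated array.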

How the data were processed

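The authors' deposited table holds 1 column per array with log2 values from 0.16 to 13.23. The log base was taken from the values, since a natural log would put the highest above the 65535 of a 16-bit scanner. Per the labels, RNA was extracted with Trizol, labelled with biotin and hybridised to Affymetrix arrays. The summarization, normalization and build behind the values are not given in the sources used here. Column medians were 3.42 to 3.46 and the values were used as deposited.

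Probe sets were named by the platform annotation, updated by gene number through RefSeq (GRCm38.p6). Of 45101, 34958 had 1 symbol, 932 several, 64 were controls and 9160 were unnamed. After the filter, 12190 genes were compared. Named genes were all members, Adamts12, other sphingolipid genes at least 2-fold apart in a pair, the 8 genes nearest to Sptssb, and marker genes. Sptssa, Cert1 and Lrg1 fall outside this rule and were chosen once their values had been seen. The members, lists and rules were chosen with earlier results of these data known.

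Tests used limma 3.58.1 in R 4.3.3 (lmFit, eBayes with trend, two-sided, Benjamini-Hochberg over all genes), with 1 residual degree of freedom; the code was tested on simulated data. The groups hold 1 mouse each, so the error comes from how far 1 factor's effect differs between the levels of the other, moderated over all genes. The p-values set each factor's average effect against that error, and do not measure the spread between mice. Alternatives were quantile normalization, median centring, other filters, the mean over probe sets, dropping the _x_at, _s_at and _a_at sets, limma without covariate or trend, and leaving out each array. Python 3.11.15, numpy 2.4.6, pandas 2.3.3 and matplotlib 3.10.9 were used.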

Additional observations from a re-analysis of the deposited data

Results flagged for a closer look

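Sptssb and B4galnt1 had DSS differences of at least 2-fold in opposite directions in the 2 genotypes, and none of these opposite pairs was tested, since 1 array per group leaves no error for the interaction. The Sptssb DSS difference was -6.69 in KO and 5.16 in WT. Between genotypes, KO minus WT was 6.13 on the untreated arrays and -5.72 on the DSS arrays. The B4galnt1 DSS difference was -2.45 in KO and 2.44 in WT. Set against the WT untreated array, the KO DSS array was still lower for Sptssb, but by -0.56, under 2-fold, and was higher for B4galnt1, at 1.63, so that its opposite direction rests on the KO untreated array.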

How the results depend on the processing

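No paired analysis was possible because each group holds 1 array. Under the 75th percentile filter, which drops Cers3, the members at least 2-fold higher were 0 with DSS in KO, 1 with DSS in WT and 0 for KO against WT with DSS, and the other sphingolipid genes higher in KO with DSS were 1. The members lower with DSS in KO were 1 under median centring, under the mean over probe sets and with the WT untreated array as baseline (the last chosen after seeing the data), against 2, since Sgms2 was at -0.99 and -0.79 in the first pair of settings. With that baseline 2 other sphingolipid genes were lower, against 6. Without the _x_at, _s_at and _a_at sets, which may match more than 1 transcript, 1 other gene was lower with DSS in WT and 1 higher in KO with DSS, and under the mean over probe sets 1 (Cert1, -1.03) was lower in KO without DSS. Limma's DSS term called 1 gene, Lrg1, under quantile normalization and without the covariate. It called 0 under the other filters, under the mean over probe sets and without the trend. Limma was not run under median centring or without the _x_at, _s_at and _a_at sets. With all 4 arrays kept, the members' adjusted p by limma for DSS ranged from 0.247 (Sgms2 without the covariate) to 0.992 (Ugcg under quantile normalization). Cers3 is left out of that range because its fit is no test. For KO no member passed. Estimates that turned sign without passing the test were those of Sptlc2 for DSS (-0.21 under the mean over probe sets, -0.0475 under quantile normalization) and, for KO under the mean over probe sets, Sptlc1 (0.12), Sptlc2 (-0.04), Ugcg (0.0325) and Sgms2 (0.0175). Leaving out each array in turn, with no covariate since 3 arrays leave no residual degree of freedom with it, moved the DSS estimate of Sptlc1 between -0.04 and 0.23, Sptlc2 between -0.2 and 0.26 and Ugcg between -0.235 and 0.405. It moved the KO estimate of Sptlc1 between -0.235 and 0.025, Sptlc2 between -0.125 and 0.285, Cers3 between -0.6 and 2.32, Cers6 and Degs2 each between -0.31 and 0.42, Asah2 between -0.12 and 0.44, Ugcg between -0.4 and 0.25 and Sgms2 between -0.8 and 0.22. Where no construction is named, the cause was not tested. Sptssb kept the direction of its 4 pair differences under the 6 settings of normalization, centring, filter and probe set tried.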
